A study of Homo sapiens with 9 samples.

Results

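Keratins and vimentin build the intermediate filaments of the cytoplasm, and 10 of their genes were followed here by name among the 62703 genes of the table: KRT17, KRT18, KRT19 and KRT10, which encode type I keratins, KRT7, KRT8, KRT80, KRT81 and KRT5, which encode type II keratins, and VIM, which encodes the type III protein vimentin. Each name had a single row. The members were chosen by name and selected on measured values of these same libraries: the abundance of KRT7, KRT8, KRT18 and VIM, and the fall of KRT17 with curcumin. Those values are therefore given as a description, and nothing is inferred from them. All 10 genes were chosen with earlier results of these data known, so the p-values of the others may not be independent of that choice.

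The study sequenced RNA from cells labelled HepG2, the name of a line from a human liver carcinoma, as 9 libraries with 3 in each of 3 groups. All cells were exposed to 750 µM palmitic acid (PA), a common dietary fat, over 24 h. One group had PA alone. Another was then treated with 20 µM curcumin, the yellow turmeric pigment, over 12 h, and the last with both 20 µM curcumin and 5 µM CuCl2 over 12 h. The labels name no cells without PA, no vehicle control, no CuCl2 without curcumin and no further 12 h for the cells with PA alone, and they do not say whether the 3 libraries of a group came from separate cultures. The p-values thus rest on how far these libraries vary, and that variation may be technical.

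A keratin filament is an obligate heteropolymer: a type I chain pairs with a type II chain, so a cell needs both kinds. KRT8 with KRT18 is the pair of simple epithelia and the only pair of normal hepatocytes, while bile duct cells add KRT7 and KRT19. KRT5 with KRT14 is the pair of basal cells of stratified epithelia, KRT10 with KRT1 that of the layers above, and KRT17, usually found with KRT6 chains, appears in skin appendages, in wounded epithelium and in many carcinomas. Vimentin polymerises without a partner and is the filament protein of mesenchymal cells and of many cells in culture.

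Transcripts of this family resemble each other, which bears on how reads could be divided between genes. Of all 50-base windows in the principal transcript, 17.4% were also found in a transcript of another gene for KRT17, 31.8% for KRT18, 37.1% for KRT8 and 44.6% for KRT81, against 0.997% for KRT7, 0.42% for KRT80 and none for KRT10 or VIM. The copies of KRT8, KRT18 and KRT17 were mostly their own pseudogenes, and those of KRT81 were mostly in the neighbouring hair keratin gene KRT86. With windows of 100 bases the shares fell to 0.353% for KRT17, 6.73% for KRT8 and 30.3% for KRT81, and none was left for KRT18. Read length is not given in the sources used here. In the table, the pseudogenes of KRT8 summed to at most 1.01% of KRT8 in any library, those of KRT18 to at most 0.164% of KRT18, and those of KRT17 to at most 0.0434% of KRT17. KRT81 values are uncertain as to how reads were divided with KRT86.

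The type II genes lie together on chromosome 12 and the type I genes on chromosome 17, with KRT18 as the exception. On GRCh38, KRT80 spans 52168996 to 52192000 on chromosome 12 (minus strand), KRT7 52232520 to 52252186 (plus), KRT81 52285913 to 52291534 (minus), KRT5 52514575 to 52520687 (minus), KRT8 52897187 to 52949954 (minus) and KRT18 52948871 to 52952901 (plus). On chromosome 17, KRT10 spans 40818117 to 40822595, KRT19 41523617 to 41528308 and KRT17 41619441 to 41624842, all on the minus strand. VIM lies on chromosome 10 at 17228259 to 17237593 (plus). The annotated starts of KRT8 and KRT18 overlap on opposite strands, and the library kit keeps strand but the counting is not stated to have used it. Antisense rows were small beside KRT7 and VIM: KRT7-AS had at most 4.57 TPM (the transcript abundance unit of the deposited table, scaled to gene length and to the library total) and VIM-AS1 at most 3.02 TPM. KRT10-AS1, at 13.7 to 17.0 TPM, was large enough beside KRT10 that reads of the wrong strand could matter there.

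Hepatocyte markers were nearly absent: 11 of 12 had a mean under 1 TPM, and ALB, TTR, APOB, APOA2 and FGB were listed at 0 in every library, while the urea cycle gene CPS1 stood at 309 TPM. Of 8 markers of bile duct and simple duct epithelium, 6 were under 1 TPM, with KRT7 present and EPCAM and KRT19 near 0. None of 9 basal and squamous markers reached a mean of 1 TPM over the 9 libraries, although KRT14 had a mean of 1.34 TPM with PA alone. The summed level of these markers was 1.6 to 1.99 TPM with PA alone, 0.46 to 0.8 with curcumin and 0.66 to 1.5 with curcumin and CuCl2. Muscle and stellate markers, mostly TAGLN, summed to 16.1 to 23.3, 10.8 to 12.2 and 12.6 to 13.1 TPM in the same order. Fibroblast markers were under 1 TPM for 7 of 8, endothelial for 6 of 6 and leukocyte for 4 of 6. The part of these levels in the results below was not tested. The labelled cell type is not borne out by these markers, so the cells are called cells labelled HepG2. In bulk RNA, fewer cells of a kind and less RNA per cell cannot be told apart.

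**Figure D1:**
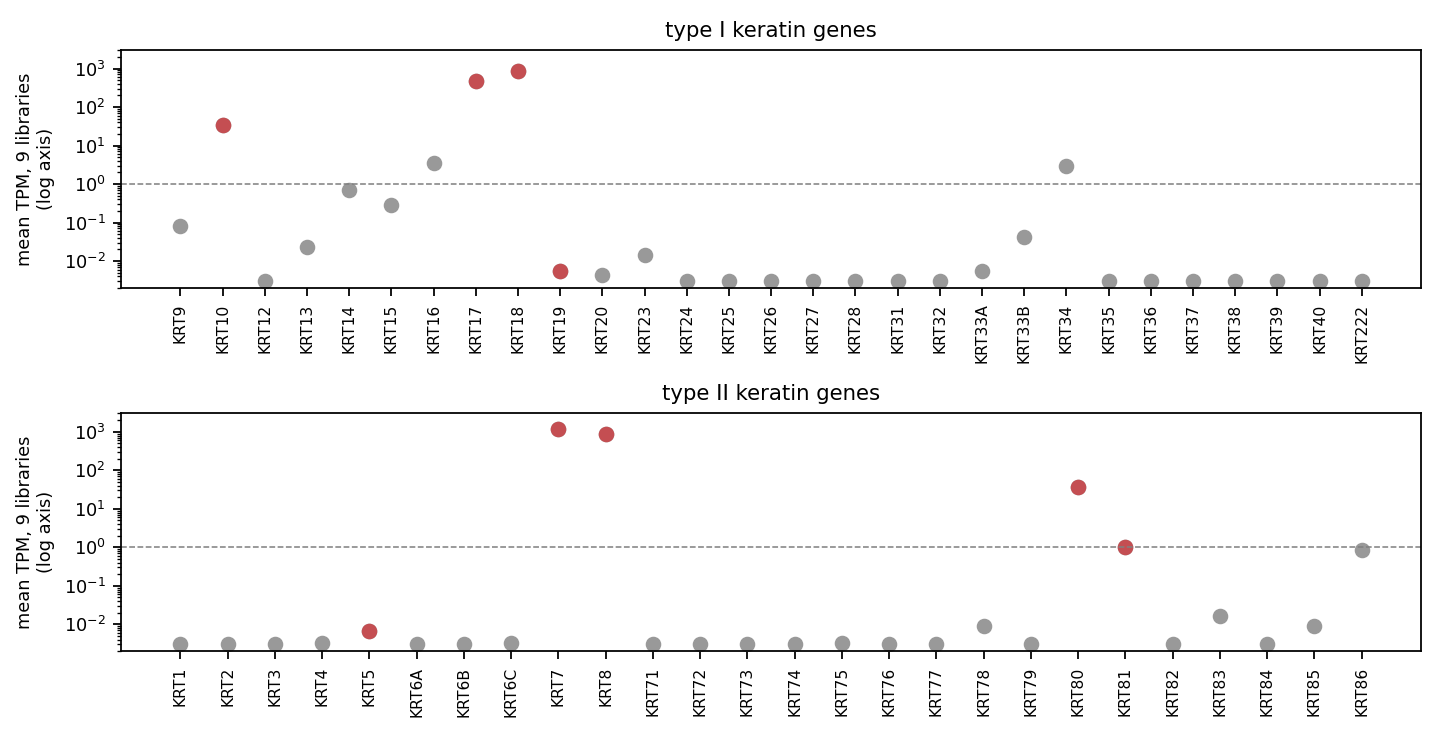
Mean TPM over the 9 libraries (log axis) of each type I keratin gene (upper panel) and type II keratin gene (lower panel) in order of gene number; red points are the genes followed here, grey points the others, the dashed line is 1 TPM, and values under 0.003 TPM are drawn at 0.003. KRT18, KRT17 and KRT10 stand out among type I and KRT7, KRT8 and KRT80 among type II, while KRT19 and KRT5 lie near 0.

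The keratin repertoire was narrow. Of 55 keratin genes in the table, 9 had a mean of at least 1 TPM and 29 were listed at 0 in all 9 libraries. The genes followed here included 7 of those 9. The other 2 were KRT16, a type I keratin of wounded and hyperproliferative epidermis (3.49 TPM), and the hair keratin KRT34 (2.9 TPM). KRT19 was listed at 0 in 8 libraries and at 0.05 TPM in the ninth, a curcumin library, and KRT5 at 0 in 8 libraries and 0.06 TPM in the other, a library with PA alone. Neither was tested further. KRT7 was thus present without KRT19, and KRT17 without KRT5.

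TPM is scaled to length, so levels of different genes can be set side by side. With PA alone, KRT7 led (1394 ± 137 TPM, SD, n = 3), above KRT8 (1077 ± 44.2) and KRT18 (1025 ± 99.5), whose ranges overlapped. VIM followed at 899.7 ± 26.3 TPM, then KRT17 at 749 ± 53.7 TPM, and after a wide gap KRT80 at 51.2 ± 7.81, KRT10 at 36.8 ± 3.97 and KRT81 at 1.36 ± 0.261 TPM. Ranges of neighbours in this order did not overlap from KRT18 down to KRT81. In both treated groups VIM stood second: its range overlapped that of KRT8 with curcumin and lay above those of KRT18 and KRT8 with curcumin and CuCl2. KRT80 then lay below KRT10 by its mean, with overlapping ranges. Over the 9 libraries KRT7 ranked 134th by mean among the 13443 genes kept for testing (mean of at least 1 TPM), KRT8 166th, VIM 168th, KRT18 169th and KRT17 303rd.

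**Figure D2:**
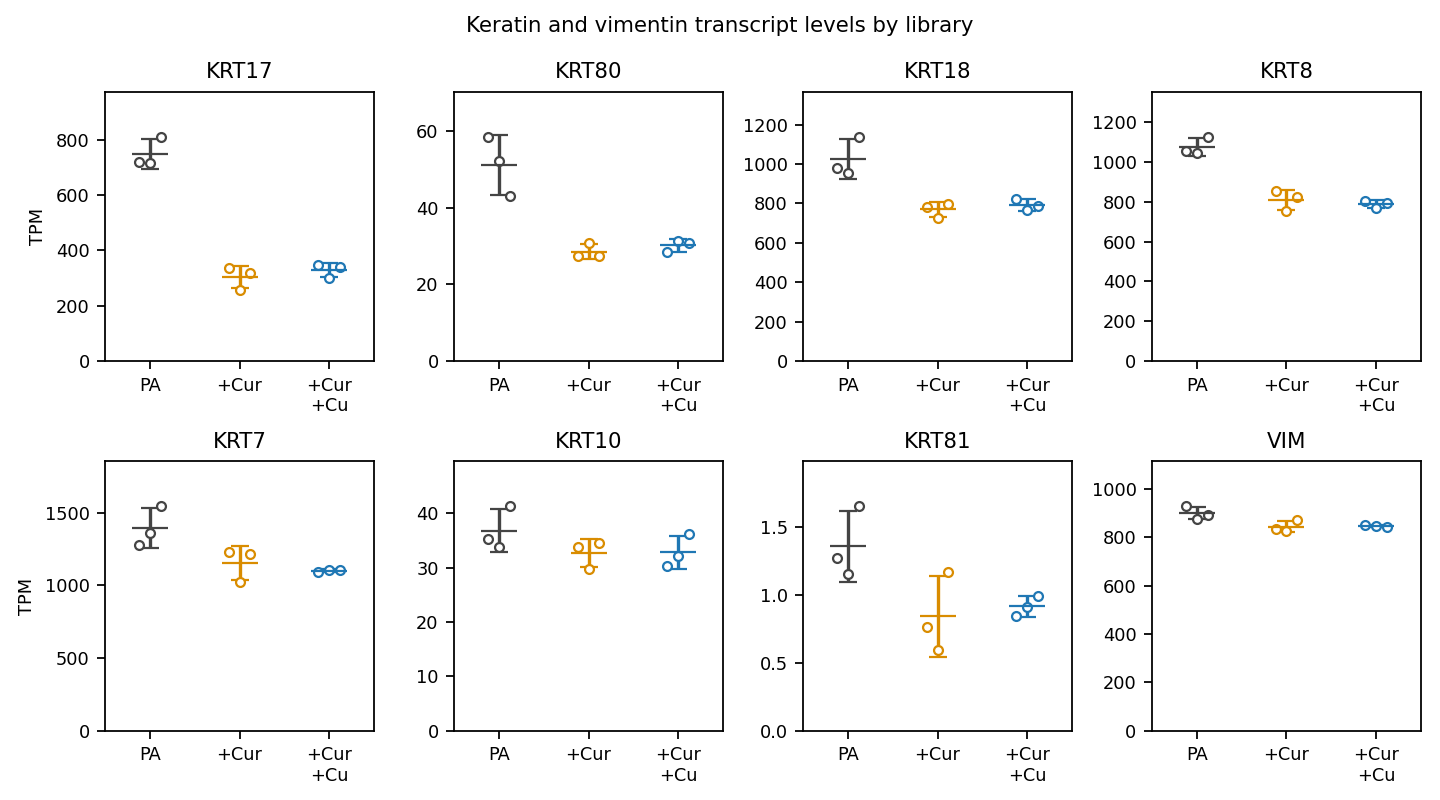
TPM of 8 genes (a panel each, axes from 0) in the 3 libraries of each group: PA alone, PA with curcumin (+Cur), and PA with curcumin and CuCl2 (+Cur+Cu). Open points are libraries, horizontal bars group means and error bars the SD; KRT17 lies at 717 to 811 TPM with PA alone and at 258 to 346 TPM in the 6 treated libraries, while VIM spans 826 to 928 TPM over all 9.

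KRT17, the type I keratin of stressed and wounded epithelium, differed most between groups. It stood at 718, 717 and 811 TPM with PA alone, at 336, 258 and 318 TPM with curcumin, and at 346, 299.5 and 341 TPM with curcumin and CuCl2. Every library with PA alone was above every treated library by a wide margin, and the treated groups overlapped. The mean changed by -59.4% with curcumin and by -56.1% when CuCl2 was added. On the log2(TPM + 1) scale, which is used for all fold changes here, the difference from PA alone was -1.30 (SE 0.10, 95% interval -1.54 to -1.07) with curcumin and -1.19 (SE 0.10, interval -1.42 to -0.95) with curcumin and CuCl2. This fall was known when the list was made, so it is given without a test.

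KRT80, a type II keratin found in many epithelia and in carcinoma lines, had the next largest difference. Its TPM was 58.5, 52.2 and 43.0 with PA alone, 27.4, 30.7 and 27.5 with curcumin, and 28.4, 31.4 and 30.7 with CuCl2 added. The lowest library with PA alone was above all treated ones. The log2 difference was -0.81 (SE 0.11, interval -1.07 to -0.56, limma with Benjamini-Hochberg adjusted p = 0.00995 over all genes) with curcumin and -0.74 (SE 0.11, interval -0.99 to -0.48, limma adjusted p = 0.0157) with curcumin and CuCl2. The first call was lost without replicate 2 of PA alone or replicate 1 or 3 of curcumin, and the second without replicate 2 of PA alone or any one library with CuCl2, and both were lost when only the groups compared were fitted. Replicate 3 of PA alone was the lowest of its group for KRT80 and the highest for KRT17, KRT7, KRT8, KRT18, KRT10 and KRT81. That library also had the smallest mitochondrial share of TPM (10.1%, against 13% and 12.5% in the other 2). With the mitochondrial share of each library as a covariate, KRT80, KRT8, KRT18 and KRT7 were called lower in both comparisons. That setting raised calls over all 13443 genes as well. Those called lower went from 162 to 643 with curcumin and from 121 to 675 with curcumin and CuCl2.

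KRT8 and KRT18, the pair of simple epithelia, were both lower by about the same amount. KRT8 stood at 1056, 1047 and 1127 TPM with PA alone, at 854, 755 and 823 TPM with curcumin, and at 802, 767 and 796 TPM with curcumin and CuCl2. KRT18 stood at 981, 955 and 1139 TPM with PA alone, at 782, 727 and 799 TPM with curcumin, and at 823, 766 and 788 TPM with curcumin and CuCl2. For both genes the treated libraries lay below all libraries with PA alone. With curcumin, KRT8 fell by 0.41 on the log2 scale (SE 0.06, limma adjusted p = 0.015) and KRT18 fell by 0.41 (SE 0.08, limma adjusted p = 0.0298). With curcumin and CuCl2, KRT8 fell by 0.45 (SE 0.06, limma adjusted p = 0.00975), while KRT18 had an estimate of -0.37 (SE 0.08, interval -0.54 to -0.20) that did not pass (limma adjusted p = 0.0513). It passed in 5 alternatives: pseudocount 0.1, a minimum mean of 5 TPM, mitochondrial genes left out, the mitochondrial covariate, and without replicate 3 of PA alone. The KRT18 call with curcumin was lost without any one of the other 8 libraries and with 4 further alternatives. KRT8 lost its call with curcumin without replicate 2 of PA alone or replicate 3 of curcumin, and with CuCl2 added without any one library of that group. Both KRT8 calls were also lost with median-of-ratios scaling, and the call with curcumin when only the groups compared were fitted or no variance trend was used. Against PA alone, the KRT8 mean changed by -24.7% with curcumin and -26.8% with CuCl2 added, and the KRT18 mean by -24.9% and -22.8%.

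KRT7, the most abundant keratin transcript, was at 1276, 1360.4 and 1545 TPM with PA alone, at 1228, 1022 and 1214 TPM with curcumin, and at 1090.2, 1103 and 1108 TPM with curcumin and CuCl2. Neither treated group overlapped with PA alone, although the gap was small: 1276 TPM in the lowest library with PA alone and 1228 TPM in the highest with curcumin. The log2 difference was -0.27 (SE 0.09, interval -0.47 to -0.07) with curcumin and -0.34 (SE 0.09, interval -0.54 to -0.14) with curcumin and CuCl2, and neither passed (limma adjusted p = 0.186 and 0.108). The intervals are not adjusted for the number of genes.

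The remaining keratins gave no call. KRT10, the type I keratin of differentiating epidermis, was at 35.2, 33.8 and 41.3 TPM with PA alone, 33.8, 29.7 and 34.5 TPM with curcumin, and 30.2, 32.1 and 36.2 TPM with curcumin and CuCl2, and the groups overlapped. Its log2 difference was -0.16 with either treatment (interval -0.40 to 0.08 for both). KRT81, a hair keratin gene, lay at the filter, with 1.27, 1.15 and 1.65 TPM with PA alone, 0.76, 0.59 and 1.17 TPM with curcumin, and 0.84, 0.91 and 0.99 TPM with curcumin and CuCl2. It reached a mean of 1 TPM only through the libraries with PA alone, so its lower treated values are no independent result.

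VIM, the vimentin gene, varied least of the 8. It was at 928, 877 and 894 TPM with PA alone, at 835, 826 and 870.1 TPM with curcumin, and at 849.7, 846 and 842 TPM with curcumin and CuCl2. All treated libraries lay below all with PA alone, by a small step. The log2 difference was -0.09 in both comparisons (SE 0.05, interval -0.20 to 0.02), and it did not pass (limma adjusted p = 0.47 and 0.493). The lower bound of the interval, -0.20, lies above the estimates for KRT8 and KRT18.

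**Figure D3:**
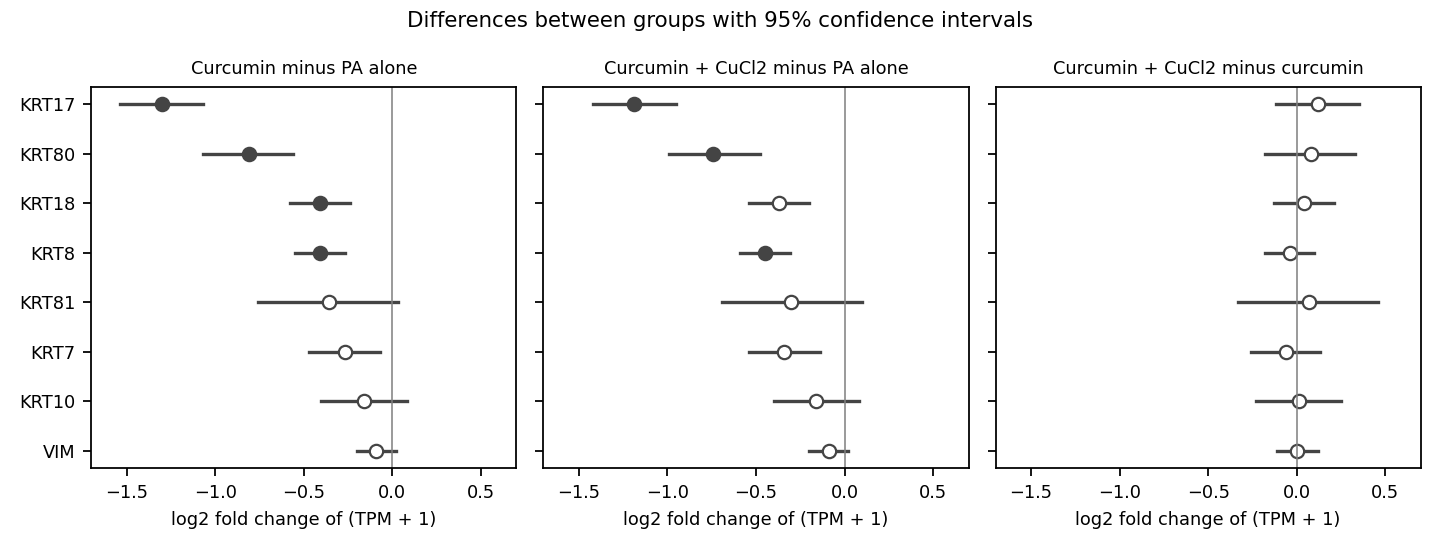
Log2 fold change of TPM + 1 for the 8 tested genes in each comparison (horizontal axis, 95% confidence intervals as lines); filled points passed a Benjamini-Hochberg adjusted p of 0.05 over 13443 genes and open points did not. KRT17 and KRT80 lie farthest below 0 in both comparisons with PA alone, VIM lies at -0.09, and all 8 lie between -0.06 and 0.12 in the comparison of the treated groups. The fall of KRT17 was used to choose the list, so its filled points are no test result.

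As counts, 4 of the 8 tested genes (KRT17, KRT80, KRT8 and KRT18) were called lower with curcumin than with PA alone, where 1.21% of all 13443 genes were called lower. None was called higher, where 0.759% of all genes were. With curcumin and CuCl2, 3 of 8 (KRT17, KRT80 and KRT8) were called lower, where 0.900% of all genes were, and none higher, where 0.543% were. The groups did not overlap, with lower treated values, for 6 of 8 genes with curcumin (8.61% of all genes) and for the same 6 and KRT81, which met the filter through its values with PA alone, with curcumin and CuCl2 (10.3%). The median log2 difference of the 8 was -0.39 and -0.35, against -0.02 and -0.03 over all genes tested. These counts and medians include KRT17, whose fall was used to choose the list, and KRT81, which met the filter through its values with PA alone. They describe a list made with such falls in view, and the comparisons share the libraries with PA alone. The first count was 1 without replicate 2 of PA alone or replicate 3 of curcumin, 2 without replicate 1 of curcumin, 2 with median-of-ratios scaling or no variance trend, 1 when only the 6 libraries compared were fitted and 5 with the mitochondrial share of each library as a covariate. Over all genes, those called lower went from 162 to 44, 31 and 51 without those libraries, in the same order. They went to 180 with the scaling, 85 with no variance trend, 19 with only the groups compared and 643 with the covariate. The second count was 1 without any one of the 3 libraries with curcumin and CuCl2, 2 with median-of-ratios scaling or only the groups compared, and 5 with that covariate. Over all genes, those called lower here went from 121 to 23, 33 and 24 without replicates 1, 2 and 3 of that group. They went to 135 with the scaling, 41 with only the groups compared and 675 with the covariate.

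Copper made no detectable difference to these transcripts on top of curcumin. In the comparison of curcumin and CuCl2 with curcumin, none of the 8 genes passed (limma adjusted p = 1 for each), none had an unadjusted p under 0.05, and all 8 overlapped between the groups, where 6.24% of all genes did not. Of all 13443 genes, 0% were called in limma and 215 had an unadjusted p under 0.05. That fit estimates 1 spread from all 3 groups, PA alone included. With only these groups fitted, 3 of all genes were called in limma and 340 had an unadjusted p under 0.05, with none of the 8 called. Estimates ran from -0.06 for KRT7 to 0.12 for KRT17. The 95% interval was -0.12 to 0.35 for KRT17, -0.18 to 0.33 for KRT80, -0.18 to 0.10 for KRT8, -0.13 to 0.21 for KRT18, -0.26 to 0.13 for KRT7, -0.23 to 0.25 for KRT10, -0.33 to 0.46 for KRT81 and -0.11 to 0.12 for VIM. The intervals leave room for a rise of KRT17 of up to 0.35 on the log2 scale.

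Ratios within a library do not depend on how libraries were scaled to each other. The KRT17 to KRT18 ratio of TPM was 0.732, 0.751 and 0.712 with PA alone, 0.429, 0.355 and 0.398 with curcumin, and 0.42, 0.391 and 0.433 with CuCl2 added. KRT17 was therefore lower relative to KRT18 as well, in all 6 treated libraries. The KRT8 to KRT18 ratio stayed near 1, between 0.975 and 1.10 in the 9 libraries, and was slightly lower with CuCl2 added (0.975 to 1.01) than with curcumin (1.03 to 1.09). Of 21 pairs among KRT17, KRT7, KRT8, KRT18, KRT80, KRT10 and VIM, this pair had the steadiest ratio, with an SD of 0.062 on the log2 scale over 9 libraries. KRT7 with KRT8 and KRT7 with KRT18 followed at 0.087 each, and KRT17 with VIM was the least steady at 0.592. A steady ratio to KRT8 was not particular to KRT18. Among 11601 genes, KRT18 was not one of the 5 nearest to KRT8 in pattern, which are given below. Set against VIM, KRT8 was at 1.14 to 1.26 with PA alone, 0.914 to 1.02 with curcumin and 0.907 to 0.946 with curcumin and CuCl2, so that KRT8 exceeded VIM in all 3 libraries with PA alone and in 1 of the 6 treated ones.

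**Figure D4:**
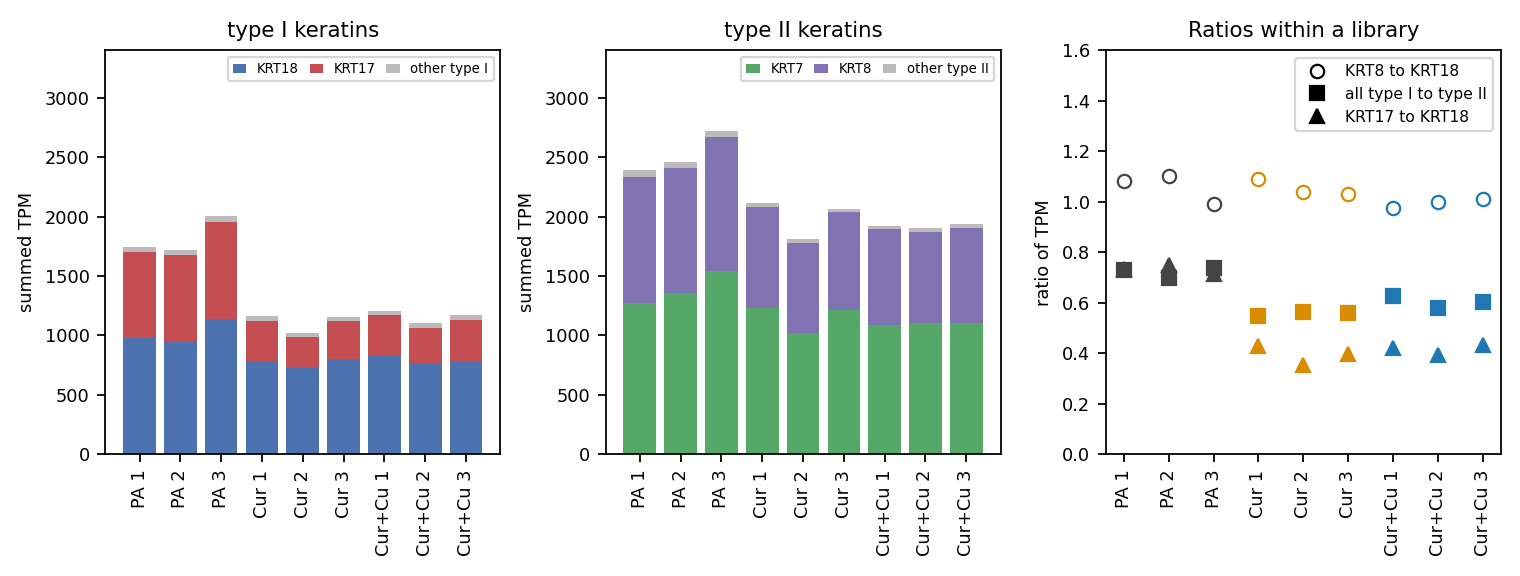
Summed TPM of type I keratins (left) and type II keratins (middle) in each of the 9 libraries as stacked bars, with KRT18 and KRT17, or KRT7 and KRT8, in colour and all others in grey; the right panel gives 3 ratios of TPM per library. KRT17 makes up 40.5% to 41.8% of the type I bars with PA alone and 25.3% to 29.1% in the treated libraries. The ratio of all type I to all type II, which includes KRT17, is lower in the treated libraries.

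Summed over all 55 genes, keratin transcripts were 0.414%, 0.418% and 0.472% of the TPM with PA alone, 0.327%, 0.283% and 0.322% with curcumin, and 0.313%, 0.301% and 0.311% with CuCl2 added. Type I keratins summed to 1821 ± 157 TPM and type II to 2524 ± 171 TPM with PA alone, so type II transcripts were in excess. The ratio of type I to type II was 0.729, 0.697 and 0.736 with PA alone, 0.549, 0.564 and 0.561 with curcumin, and 0.627, 0.58 and 0.604 with CuCl2 added. The 3 groups did not overlap in this ratio. It is given with no test because it includes KRT17, whose fall was used to choose the list. Type I keratins without KRT17 summed to 1072 TPM with PA alone, 809 with curcumin and 831 with CuCl2 added. Type II keratins summed to 1996 TPM with curcumin and 1921 TPM with CuCl2 added. Against PA alone, the ratio is thus no result separate from the fall of KRT17. Between the treated groups, the mean type I sum without KRT17 was higher with CuCl2 added and the mean type II sum lower. Both sums overlapped between these groups, and the part of each in the ratio was not tested. KRT17 was 41.2% ± 0.641 of the type I sum with PA alone, 27.2% ± 1.85 with curcumin and 28.3% ± 1.04 with curcumin and CuCl2 (SD, n = 3 each). Within type II, the share of KRT7 was 53.3% to 56.8%, 56.5% to 58.8% and 56.7% to 57.9%, with overlapping groups.

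The 2 other keratin genes above the filter were not called. KRT16, which lies beside KRT17, was at 4.29 ± 0.471 TPM with PA alone, 3.49 ± 1.1 with curcumin and 2.7 ± 0.59 with curcumin and CuCl2. KRT34 was at 3.76 ± 0.285, 2.27 ± 0.382 and 2.67 ± 0.402 TPM (limma adjusted p = 0.114 with curcumin and 0.287 with CuCl2 added).

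Genes that work with these filaments gave few calls. Of 15 other intermediate filament genes, 7 were tested and only SYNC, which encodes syncoilin, a filament-binding protein of muscle, fell, from 10.5 ± 0.792 to 3.33 ± 0.392 TPM with curcumin (log2 fold change -1.41, limma adjusted p = 0.00758) and to 3.17 ± 1.16 TPM with curcumin and CuCl2 (-1.50, limma adjusted p = 0.00658). Without replicate 3 of curcumin, SYNC no longer passed with curcumin. The lamin gene LMNA, the most abundant of that list, was at 598, 553 and 525 TPM in the 3 groups without a call. SYNM was higher without a call, at 7.54 ± 1.25 TPM with PA alone, 11.7 ± 1.56 with curcumin and 10.6 ± 1.16 with CuCl2 added. Its log2 fold changes were 0.57 and 0.45 (limma adjusted p = 0.0951 and 0.189). Of the 7 tested, 4 had an estimate below 0 in each comparison with PA alone. The median of the list was -0.03 with curcumin and -0.19 with curcumin and CuCl2. None of 14 tested genes of desmosomes and cytolinkers, which anchor keratin filaments, passed. Of these, 12 had an estimate below 0 with curcumin and 13 with CuCl2 added, against 53.5% and 56.1% of all genes, and the medians were -0.21 and -0.24. JUP, which encodes plakoglobin, came nearest, at 150.0 ± 22.1 TPM with PA alone and 109 ± 4.27 TPM with curcumin (log2 -0.45, limma adjusted p = 0.0565). PPL, which encodes periplakin, had the largest estimate of the list at -0.81 (limma adjusted p = 0.0695).

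Of 15 tested keratin partners and modifiers, the small heat shock protein gene HSPB1 fell with curcumin, from 684 to 465 TPM (log2 -0.55, limma adjusted p = 0.0462), and did not pass with CuCl2 added (-0.53, limma adjusted p = 0.0628). The first call was lost without any one of 8 of the 9 libraries, replicate 3 of PA alone being the exception, and with no filter, median-of-ratios scaling, only the groups compared or no variance trend. SFN, which encodes the 14-3-3 sigma protein that binds keratins 17 and 18, was at 277, 263 and 258 TPM. None of 5 hemidesmosome genes, 8 epithelial transcription regulators or 7 epithelial surface and junction genes passed in any comparison, and none of 12 mesenchymal genes did. Medians of these 4 lists lay between -0.22 and 0.05 with curcumin and between -0.31 and 0.04 with CuCl2 added. Over the 9 libraries, CDH1, the epithelial cadherin gene, had a mean of 0.4 TPM and CDH2, the neural cadherin gene, 13.5 TPM. Both lists held high and low genes, so these 2 do not stand for their lists. Among surface and junction genes, CLDN1 had a mean of 72.7 TPM and EPCAM 0.00444 TPM. Among mesenchymal genes, S100A4 had 917 TPM and SPARC 0.0378 TPM. LMNA, SYNM, JUP, PPL, SFN, CDH1, CDH2, CLDN1, EPCAM, S100A4 and SPARC were singled out after their values were seen.

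**Figure D5:**
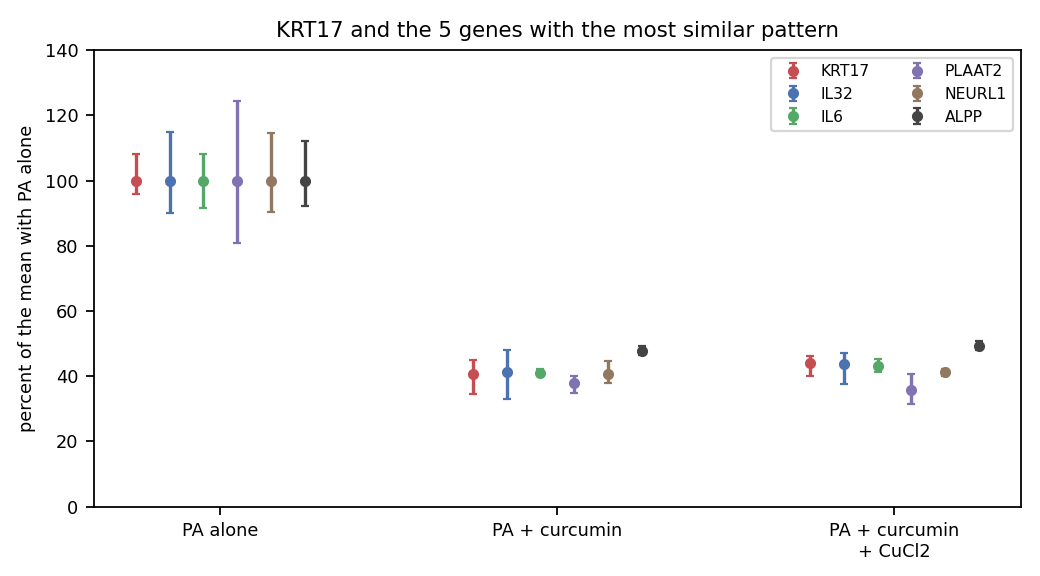
Group means of KRT17 and of the 5 genes nearest to it in pattern, as a percentage of each gene's mean with PA alone (vertical axis from 0), for the 3 groups; error bars run from the lowest to the highest library. KRT17 stands at a change of -59.4% and -56.1% from PA alone in the treated groups, with IL32, IL6, PLAAT2 and NEURL1 close to it and ALPP a little higher.

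The genes most like KRT17 in pattern were sought as those with the smallest root mean square difference from it in log2(TPM + 1) over the 9 libraries, each gene centred on its own mean, among 1204 genes that varied enough. They were the cytokine genes IL32 (difference 0.065) and IL6 (0.147), the phospholipid acyltransferase gene PLAAT2 (0.15), the ubiquitin ligase gene NEURL1 (0.166) and the placental alkaline phosphatase gene ALPP (0.191). IL32 was at 54.3 ± 7.17 TPM with PA alone, 22.5 ± 4.23 with curcumin and 23.8 ± 2.89 with curcumin and CuCl2. IL6 was at 156 ± 13.1, 64.0 ± 1.64 and 67.2 ± 3.13 TPM. For KRT8, among 11601 genes, the nearest were TPM2, a tropomyosin gene (0.043), TGFB1 (0.044), the creatine kinase gene CKB (0.048), EBNA1BP2 (0.055) and SEMA3B (0.055). TPM2 was at 550.2 ± 45.2, 418 ± 34.4 and 415 ± 23.6 TPM in the 3 groups. For VIM they were CDK2AP1, MRPS18B, RPL14, C1QBP and SGTA, all within 0.033, which are among the many genes that hardly varied.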

How the data were processed

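Poly(A) RNA was sequenced from 9 libraries in 3 groups of 3. The authors deposited gene TPM values, per the file headers. The submitters' processing notes name HISAT2 2.1.0, RSEM 1.3.3 and GRCh38.p13 without their roles; read length and strand setting are not given in the sources used here. TPM keeps no depth, so the depth behind a value is unknown and no count test was run. Sample titles gave each library its group and number.

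The 13443 of 62703 genes whose mean reached 1 TPM were fitted with limma 3.58.1 in R 4.3.3, with a variance trend, on log2(TPM + 1) in all 9 libraries. P-values are two-sided and adjusted by Benjamini-Hochberg over those genes (threshold 0.05). A fold change on this scale understates the change of low genes. The fit was tested on simulated data for curcumin against PA alone, with 200 changed genes. It recovered 49.4% of 1.5-fold, 84.5% of 2-fold and 98.6% of 4-fold changes, and 5.07% of calls were false. A gene that did not pass may therefore still differ. The 20 alternatives cover pseudocount, filter, scaling, pseudogene sums, the libraries fitted, the replicate block, the variance trend, the mitochondrial share and leaving out each library. Transcripts for the shared windows, and coordinates, came from GENCODE release 29 (GRCh38), whose match to the annotation the authors used was not checked.

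The 10 genes and all lists were chosen with earlier results of these data known. Named beside them were every other keratin with a mean of at least 1 TPM, up to 4 called genes of each list with the largest fold change, and the 5 nearest genes in pattern of KRT17, KRT8 and VIM (for KRT17, only among genes that varied enough over the 9 libraries). KRT14 and KRT86 are named outside that rule. Figures were drawn with matplotlib 3.10.9.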

Additional observations from a re-analysis of the deposited data

How the results depend on the processing

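Counts of the 8 tested genes that were called depended on the processing, and their direction against PA alone did not, in any of the 20 alternatives (19 for KRT81, which a minimum mean of 5 TPM left out). For curcumin the count of 4 became 2 with median-of-ratios scaling or no variance trend and 1 with only the groups compared. It became 3 with no filter and 5 with the mitochondrial share as a covariate, and ran from 1 to 4 when 1 library was left out. For curcumin and CuCl2 the count of 3 became 2 with median-of-ratios scaling or only the groups compared and 5 with the mitochondrial covariate, and ran from 1 to 4 when 1 library was left out. The cause was not tested. For CuCl2 added to curcumin the count was 0 in all 20. KRT7 was called only with the mitochondrial covariate, in both. Estimates near 0 changed sign between the treated groups: KRT10 -0.0587 and -0.0641 (range -0.0641 to 0.0627 when 1 library was left out), KRT8 0.0005 (range -0.0879 to 0.0005), KRT81 -0.0313 (range -0.0313 to 0.19), VIM -0.0034 and -0.0115 (range -0.0115 to 0.0258), HSPB1 -0.0755 and -0.0045 (range -0.0755 to 0.0873) and SYNC 0.061 (range -0.30 to 0.061).

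Same-numbered libraries did not deviate together throughout (correlations of deviations -0.269 to 0.246), so the numbers were not taken as pairs. With the replicate block the counts were 4, 3 and 0, and HSPB1 with curcumin and CuCl2 passed. Over all genes, calls went from 264 to 35 with only the groups compared, to 1505 with the mitochondrial covariate and to 619 without replicate 3 of PA alone for curcumin, and from 194 to 65, 1436 and 527 for curcumin and CuCl2. Depth is unknown from TPM, so it is not known how far depth limits KRT81, KRT19 and KRT5.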

Other observations

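KRT14, the type I partner of KRT5 in basal cells, was under the filter and was looked at after its values were seen. It was at 1.21, 1.54 and 1.28 TPM with PA alone, 0.32, 0.23 and 0.25 TPM with curcumin, and 0.53, 0.37 and 0.67 TPM with curcumin and CuCl2. The 3 groups did not overlap, and no test was made. Of its 50-base windows, 23.8% were found in transcripts of other genes, most often KRT16. KRT86, the hair keratin gene that shares sequence with KRT81, was at 1.17, 1.12 and 1.01 TPM with PA alone, 0.95, 0.52 and 0.58 TPM with curcumin, and 0.89, 0.67 and 0.71 TPM with curcumin and CuCl2. Its treated libraries all lay below those with PA alone, as those of KRT81 did with CuCl2 added. Among all genes tested, 8.61% lay so with curcumin and 10.3% with CuCl2 added. KRT86 was under the filter and was not tested. Of the 50-base windows of KRT81, 38.4% were found in KRT86, so their values are not independent. KRT86 also overlaps the abundant KRT7 on the same strand.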
